A study of Mus musculus with 2 samples.

Results

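The 10 genes described here encode RNA-binding proteins that set alternative splicing in the nervous system: the polypyrimidine tract-binding proteins Ptbp1 and Ptbp2, Nova1 and Nova2, the Rbfox proteins Rbfox1, Rbfox2 and Rbfox3, the serine/arginine repetitive matrix protein Srrm4, and the Hu proteins Elavl3 and Elavl4. They were listed by name, with no threshold on their values but with earlier results of these data known, and all 10 had a row among the 19202 Ensembl genes of the deposited RNA sequencing table. The tissue was mouse telencephalon of the C57BL/6 background at embryonic day 12. The genotypes were H2AZcKO, a conditional knockout of the histone variant H2A.Z, and H2AZfl/fl, which carries the floxed allele. The sources used here name no Cre driver, and so not the cells in which the allele was deleted. Although the series text speaks of replicates, the table held a single count column for each genotype. No label or header says whether a column is 1 sample or a pool of replicates. Each column is called a library below for short, the differences have no check against replicates, and no test of the genotype was run.

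The libraries summed to 8839840 counts in H2AZcKO and 8891198 in H2AZfl/fl. The targeted gene H2afz stood at 1664 counts in H2AZcKO and 2605 in H2AZfl/fl, a ratio of 0.661 (0.621 to 0.703). The libraries also differed in sex-linked RNA, with Xist at 6384 counts in H2AZcKO and 200 in H2AZfl/fl, and 4 Y-linked genes together at 8 and 1716 counts. All 10 splicing regulators are autosomal, and the part of embryo sex in the values below was not tested. Levels are in CPM (counts scaled to a common library total, here by TMM), with exact Poisson 95% intervals. Ratios are H2AZcKO over H2AZfl/fl with exact binomial (Clopper-Pearson) 95% intervals. Both kinds of interval cover counting error alone, because 1 column per genotype gives no spread between replicates. They also take reads as independent. Reads that carry no molecular identifier can be copies of the same molecule, so the intervals can be too narrow even for counting error.

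In dividing neural progenitors Ptbp1 binds pyrimidine-rich stretches of pre-mRNA and holds neuronal exons out of the transcript. As neurons form, Ptbp1 falls and its paralog Ptbp2 takes over, which lets part of the neuronal exons in. Nova proteins bind through KH domains, Rbfox proteins through an RNA recognition motif, and either can favour or block an exon depending on where they bind. Srrm4 promotes the very short exons called microexons, and Elavl3 and Elavl4 bind U-rich RNA and affect its stability as well as its splicing. The deposited values are counts per gene, so they give the amount of each regulator's RNA and nothing of exon inclusion.

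Splicing itself ties Ptbp1 to Ptbp2. A short exon in each is skipped when polypyrimidine tract-binding protein is abundant, and the shortened transcript is destroyed by nonsense-mediated decay. The exons are shown because the amount of Ptbp2 RNA at a given amount of Ptbp1 depends on them. They were read from the GENCODE M21 transcripts (GRCm38), 5′ to 3′ on the coding strand, with the exon in capitals and 20 bases of the neighbouring exons in lower case. The last sequence is the corresponding exon of the paralog Ptbp3.
Ptbp1 exon 10, chr10:79862014-79862047, plus strand: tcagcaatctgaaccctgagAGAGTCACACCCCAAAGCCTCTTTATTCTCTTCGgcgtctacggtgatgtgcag
Ptbp2 exon 10, chr3:119724612-119724645, minus strand: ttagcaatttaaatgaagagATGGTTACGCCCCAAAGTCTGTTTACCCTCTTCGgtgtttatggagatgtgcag
Ptbp3 exon 11, chr4:59485339-59485372, minus strand: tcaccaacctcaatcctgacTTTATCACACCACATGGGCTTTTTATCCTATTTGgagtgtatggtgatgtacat

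Each of the 3 exons is 34 bases long, which is not a multiple of a codon, so leaving it out shifts the reading frame. The Ptbp1 and Ptbp2 exons were identical at 26 of 34 bases (76.5%), and the Ptbp3 exon matched that of Ptbp1 at 22 and that of Ptbp2 at 21. GENCODE M21 lists 2 transcripts without the exon for Ptbp1 and 2 for Ptbp2, all of them of the nonsense-mediated decay type. Counts per gene add transcripts with and without these exons.

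All 10 regulators were present in both libraries at levels well above the detection floor. The lowest, Rbfox1, had 560 counts in H2AZfl/fl, and the highest, Elavl3, had 6540. All reached the level of 1 CPM in the higher library that 14586 of the 19202 genes reached, which are called the genes tested. By mean CPM the regulators lay between the 71.5th percentile of these genes (Rbfox1) and the 99.3rd (Elavl3).

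To compare genes with each other, CPM was divided by the length of the principal transcript in kilobases. On that scale Elavl3 was the highest in H2AZfl/fl, at 145 CPM per kilobase (141 to 148). Ptbp2 and Ptbp1 followed at 102 (98.5 to 106) and 98.3 (94.6 to 102), and their intervals overlapped. Rbfox2 came next at 79.0 CPM per kilobase (76.8 to 81.3). The middle of the order was held by Elavl4 at 46.7, Rbfox1 at 44.1 and Rbfox3 at 35.6 CPM per kilobase, of which Elavl4 and Rbfox1 overlapped. Srrm4 at 23.1, Nova2 at 15.9 and Nova1 at 11.5 CPM per kilobase were the lowest. In H2AZcKO the order was the same except that Rbfox1, at 47.0 CPM per kilobase, stood above Elavl4, at 43.2, with overlapping intervals. The order depends on the length used: with the union of all annotated exons Rbfox1 went from 44.1 to 14.1 and Ptbp2 from 102 to 37.4 CPM per kilobase in H2AZfl/fl, while Elavl3 remained first and Nova1 last.

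**Figure D1:**
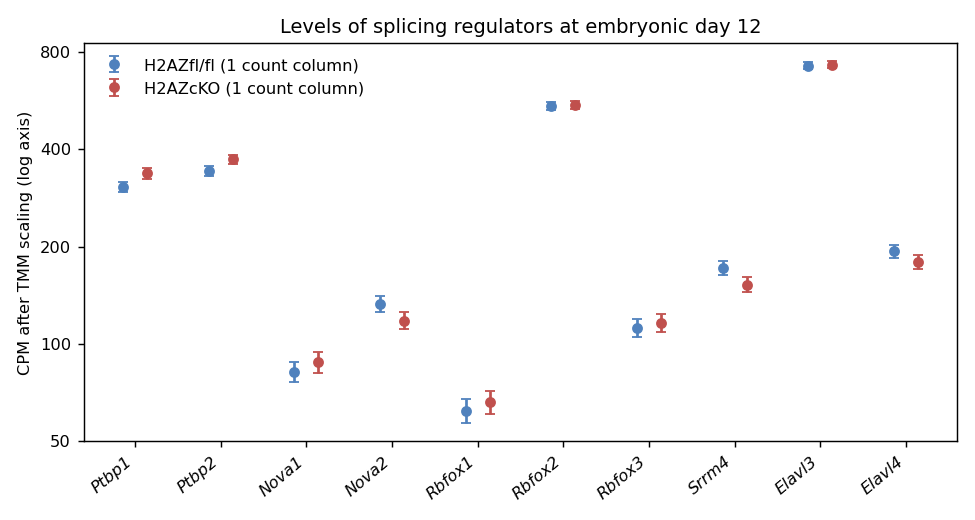
Level of each of the 10 regulators in CPM after TMM scaling, on a log axis, in the H2AZfl/fl library (blue) and the H2AZcKO library (red). Bars are exact Poisson 95% intervals; each genotype has 1 count column, and the pairs of points lie close to each other from Rbfox1 (62.1 and 66.2 CPM) to Elavl3 (725 and 729.7 CPM).

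Ptbp1, the regulator of the progenitor state, was slightly higher in H2AZcKO. It had 2756 counts in H2AZfl/fl, or 306 CPM (294 to 317), and 2938 counts in H2AZcKO, or 337 CPM (325 to 349). The counting intervals did not overlap, and the ratio was 1.10 (1.05 to 1.16). Ptbp1 (ENSMUSG00000006498) lies on chromosome 10 at 79854427 to 79864771, plus strand, in the deposited positions, which match GRCm38. Its exons overlap those of E130317F20Rik, Gm17134 and Plppr3 on the opposite strand. Plppr3, at 5361 counts in H2AZfl/fl and 5434 in H2AZcKO, is the abundant partner, and shares 5.30% of the exonic bases of Ptbp1. The sources used here do not say whether counting used strand. Of the 50-base words of the Ptbp1 transcript, 30.55% also occur in transcripts of other genes on either strand. Gm17134 on the opposite strand holds 11.17%, and 8.04% occur in Gm4900, a processed pseudogene. The share for Nova2 is similar, at 30.76%.

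Ptbp2, the neuronal paralog, was higher by about the same ratio as Ptbp1. It had 3095 counts in H2AZfl/fl, or 343 CPM (331 to 356), and 3247 in H2AZcKO, or 373 CPM (360 to 386), without overlap of the intervals. The ratio was 1.09 (1.03 to 1.14). Since both genes were counted in the same library, their balance needs no scaling between libraries. Ptbp2 had 1.12 counts per count of Ptbp1 in H2AZfl/fl and 1.11 in H2AZcKO, a ratio between genotypes of 0.984 (0.916 to 1.06, exact conditional interval). The interval includes 1, so no shift of the balance was detectable at these depths. Ptbp2 (ENSMUSG00000028134, chromosome 3, 119718742 to 119784466, minus strand) shares no 50-base word with another gene. Ptbp3, a family member with wider use outside the nervous system, was rarer, at 36.6 CPM in H2AZfl/fl and 39.1 CPM in H2AZcKO, a ratio of 1.07 (0.916 to 1.25).

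The Nova genes stood on opposite sides of 1. Nova1 had 739 counts in H2AZfl/fl, or 82.0 CPM, and 765 in H2AZcKO, or 87.8 CPM, with overlapping intervals and a ratio of 1.07 (0.967 to 1.19). Nova2, the form used mainly in the forebrain, had 1200 counts in H2AZfl/fl, or 133 CPM (126 to 141), and 1029 in H2AZcKO, or 118 CPM (111 to 125). The intervals of Nova2 did not overlap, H2AZcKO was the lower library, and the ratio was 0.887 (0.815 to 0.965). Of the counts of both genes Nova1 took 38.1% (35.9 to 40.3) in H2AZfl/fl and 42.6% (40.3 to 45.0) in H2AZcKO, with exact binomial intervals. The Nova1 to Nova2 ratio was 1.21 times as high in H2AZcKO (1.06 to 1.38). Nova1 (ENSMUSG00000021047) is on chromosome 12 at 46694517 to 46818775, minus strand, and Nova2 (ENSMUSG00000030411) on chromosome 7 at 18925888 to 18965319, plus strand. The long noncoding RNA Gm26821 covers 31.7% of the exonic bases of Nova2 on the opposite strand and had no row of its own in the table.

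The Rbfox genes were close to equal between the libraries. Rbfox2, which is used in many tissues, was the most abundant of them, at 4922 counts in H2AZfl/fl (546 CPM) and 4796 in H2AZcKO (550.2 CPM), a ratio of 1.01 (0.969 to 1.05). Rbfox3, whose protein is the neuronal antigen NeuN, had 1010 counts in H2AZfl/fl (112 CPM) and 1012 in H2AZcKO (116 CPM), a ratio of 1.04 (0.949 to 1.13). Rbfox1, a regulator of neurons, heart and skeletal muscle, had 560 counts (62.1 CPM) and 577 counts (66.2 CPM), a ratio of 1.07 (0.947 to 1.2). The intervals of all 3 ratios include 1. Within the family the balance was likewise close: Rbfox3 relative to Rbfox2 was 1.03 times as high in H2AZcKO (0.933 to 1.13) and Rbfox1 relative to Rbfox2 was 1.06 times as high (0.933 to 1.2). These are the longest genes of the set. The deposited positions give Rbfox1 (ENSMUSG00000008658) on chromosome 16 at 6809222 to 7412479, plus strand, Rbfox2 (ENSMUSG00000033565) on chromosome 15 at 77078990 to 77307053, minus strand, and Rbfox3 (ENSMUSG00000025576) on chromosome 11 at 118489762 to 118911597, minus strand. GENCODE M21 starts Rbfox1 further upstream, at 5885355, so its first annotated exons were outside the counted region.

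Srrm4, which drives microexon inclusion, had the lowest ratio of the set. It had 1554 counts in H2AZfl/fl, or 172 CPM (164 to 181), and 1329 in H2AZcKO, or 152 CPM (144 to 161). The intervals did not overlap, and the ratio was 0.885 (0.822 to 0.953). Its paralog Srrm3, which also acts on microexons, was at 61.8 CPM in H2AZfl/fl and 58.9 CPM in H2AZcKO, a ratio of 0.953 (0.843 to 1.08). The Srrm4 to Srrm3 ratio between genotypes was 0.929 (0.805 to 1.07), which does not set the paralogs apart. Srrm4 (ENSMUSG00000063919) lies on chromosome 5 at 116439275 to 116591817, minus strand. Srrm4os, on the opposite strand and overlapping 0.784% of the exonic bases of Srrm4, had 24 counts in H2AZfl/fl and 5 in H2AZcKO, a ratio of 0.216 (0.0642 to 0.576); it is named as an overlapping gene, after its value was seen.

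Of the neuronal Hu genes Elavl3 was nearly equal between the libraries and Elavl4 slightly lower in H2AZcKO. Elavl3 had 6540 counts in H2AZfl/fl, or 725 CPM, and 6360 in H2AZcKO, or 729.7 CPM, a ratio of 1.01 (0.972 to 1.04), the narrowest interval of the set. Elavl4 had 1746 counts in H2AZfl/fl, or 194 CPM (185 to 203), and 1562 in H2AZcKO, or 179 CPM (170.4 to 188), a ratio of 0.926 (0.864 to 0.991). The CPM intervals of Elavl4 overlapped, and the interval of its ratio lay just below 1. The Elavl4 to Elavl3 ratio was 0.920 times as high in H2AZcKO (0.852 to 0.994). Elavl1, the family member used in all tissues, was at a ratio of 0.975 (0.908 to 1.05), and Elavl2, expressed in neurons and germ cells, at 1.09 (1.01 to 1.18). Elavl3 (ENSMUSG00000003410) is on chromosome 9 at 22015005 to 22052023 and Elavl4 (ENSMUSG00000028546) on chromosome 4 at 110203722 to 110351909, both on the minus strand. No 50-base word of transcript is shared between paralogs of the set, so reads of that length do not confuse the paralogs.

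**Figure D2:**
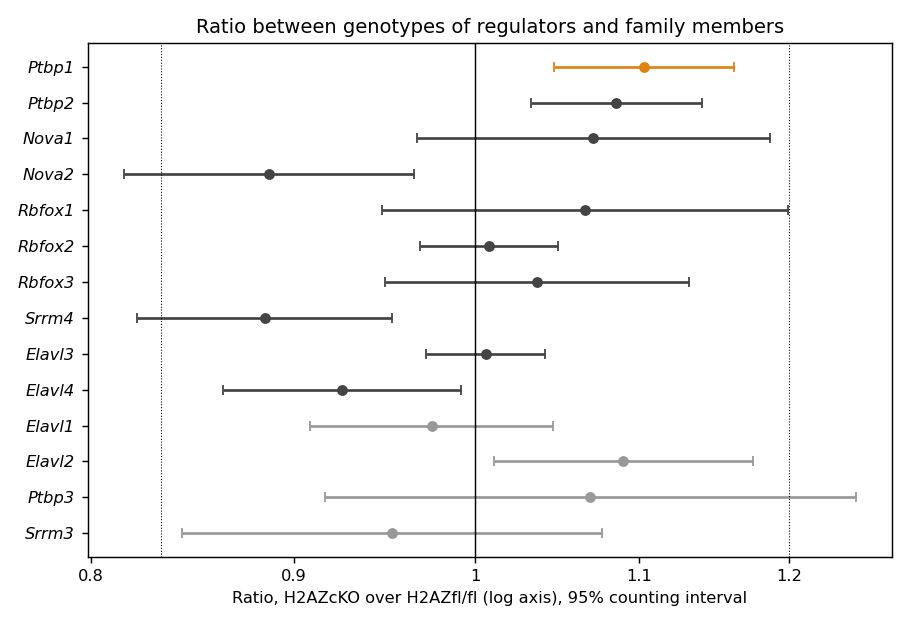
Ratio of H2AZcKO over H2AZfl/fl on a log axis, with exact binomial 95% intervals, for Ptbp1 (orange), the 9 neuronal regulators (dark) and 4 further members of the same families (grey); dotted lines mark 1.2-fold. The 10 regulators span 0.885 (Srrm4) to 1.10 (Ptbp1), and no point reaches the dotted lines.

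On the log2(CPM + 1) scale 7 of the 10 regulators were above 0 and 3 below, against 51.0% of all genes tested above 0, and 5 were above 0 with total count scaling, where Rbfox2 and Elavl3 turned negative. None was 1.5-fold higher, a size that 1.92% of genes tested reached, and none was 1.5-fold lower, as 3.03% were. At 1.2-fold, reached by 11.4% of genes tested in the higher and 13.4% in the lower direction, the count of regulators was also 0 in each direction. The interval of the ratio lay wholly above 1 for 2 of 10 (Ptbp1 and Ptbp2) and wholly below 1 for 3 of 10 (Nova2, Srrm4 and Elavl4). The shares over all genes tested were 12.6% above and 11.2% below. Because intervals narrow with depth, the 4166 genes with at least 1137 counts over both libraries, the sum of Rbfox1, are the closer background. There 25.7% lay wholly above 1 and 15.5% wholly below. At that depth 57.5% had a log2 ratio above 0, 4.03% and 2.88% were 1.2-fold higher or lower, and 0.144% and 0.024% were 1.5-fold higher or lower. In the authors' deposited table Nova2, Srrm4 and Elavl4, 3 of the 10, have an adjusted p under 0.05, as have 12.6% of all genes tested and 26.1% of those at that depth. That table marks 0 of the 10 as significant. Its mark also asks for an absolute log2 ratio of at least 1, and the regulator farthest from 0 there is Srrm4 at -0.217. The count of 0 marks therefore follows from the size of the ratios and says nothing further.

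**Figure D3:**
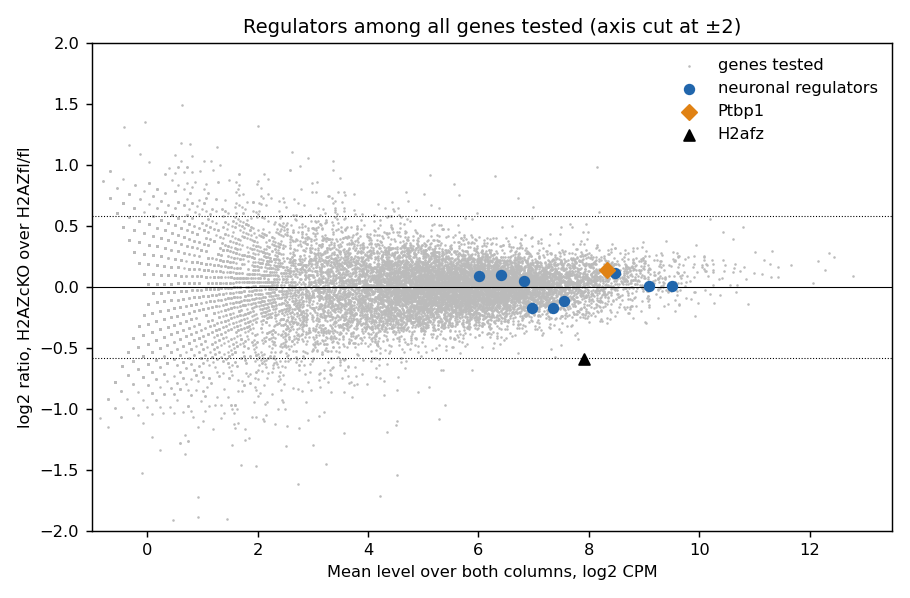
Log2 ratio of H2AZcKO over H2AZfl/fl against mean level in log2 CPM for 14586 genes tested (grey), the 9 neuronal regulators (blue), Ptbp1 (orange diamond) and H2afz (black triangle); dotted lines mark 1.5-fold and 8 genes lie outside the vertical axis. The regulators sit inside the grey cloud, between -0.18 and 0.14, while H2afz stands at -0.60.

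The set was put together to hold the progenitor regulator against the neuronal ones. The log2 ratio of Ptbp1 was 0.14, and the median of the 9 neuronal regulators was 0.012, beside a median of 0.0060 over all genes tested and 0.027 over genes at that depth. The sign of the neuronal median turned with the scaling, to -0.029 by total count and -0.012 by DESeq2 size factors, which shift every log2 ratio by -0.041 and -0.023. Ptbp1 exceeded the neuronal median by 0.13, a distance that fell to 0.077 with a joint trend on transcript length, GC content and level taken out and to 0.063 with a trend on genomic span taken out. Taken as ratios to Ptbp1 within each library, which scaling between libraries does not affect, all 9 neuronal regulators were lower in H2AZcKO, as they must be with Ptbp1 at the highest ratio of the 10. The same was so for 73.7% of the other genes tested and for 80.0% of those at that depth, so nothing about the neuronal regulators is read from this count. The values ran from 0.802 for Srrm4 (0.733 to 0.879) and 0.804 for Nova2 (0.728 to 0.888) to 0.984 for Ptbp2 (0.916 to 1.06). The interval lay below 1 for 5 of the 9, namely Nova2, Rbfox2, Srrm4, Elavl3 and Elavl4, beside 26.6% of the other genes tested and 41.7% of those at that depth. Ptbp1 did not stay the highest once the trends were removed: Nova1 (0.15) stood above it (0.088) without the joint trend, and Rbfox1 (0.16), Ptbp2 (0.14) and Nova1 (0.13) stood above it (0.12) without the span trend, which left 8 and 6 of the 9 below Ptbp1. The 9 comparisons share the Ptbp1 counts and are not independent of each other.

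The ratios also varied with the length of the transcripts. Over the genes tested the log2 ratio was lower for longer transcripts, with a Spearman correlation of -0.27 across 14543 genes, which are not independent replicates and share both libraries. The correlation was -0.14 with genomic span, 0.036 with GC content and 0.030 with the level in H2AZfl/fl. The principal transcripts of Nova2 and Srrm4 are 8372 and 7472 bases long and those of Ptbp1 and Ptbp2 3110 and 3364 bases, and across the 10 regulators the correlation with length was -0.66. Nova1, at 7154 bases, did not follow that order. Once a trend fitted jointly on length, GC content and level was taken out, Ptbp1 stood at a log2 ratio of 0.088 (0.013 to 0.16) and Elavl4 at -0.15 (-0.25 to -0.047), on the same side as before. The intervals of Ptbp2 (0.051, -0.020 to 0.12), Nova2 (-0.083, -0.21 to 0.037) and Srrm4 (-0.10, -0.21 to 0.0029) then included 0, and that of Nova1 (0.15, 0.0019 to 0.30) no longer did. With a trend on genomic span removed instead, it was Elavl4 whose interval included 0 (-0.073) and Rbfox2 whose interval did not (0.058). Only Ptbp1 had its interval on the same side of 0 under TMM, total count and DESeq2 scaling, the deposited CPM and both trend removals. The intervals after trend removal are the TMM intervals shifted by the fit and hold no error of the fit itself. In the authors' deposited table the adjusted p of Ptbp1 is not under 0.05.

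**Figure D4:**
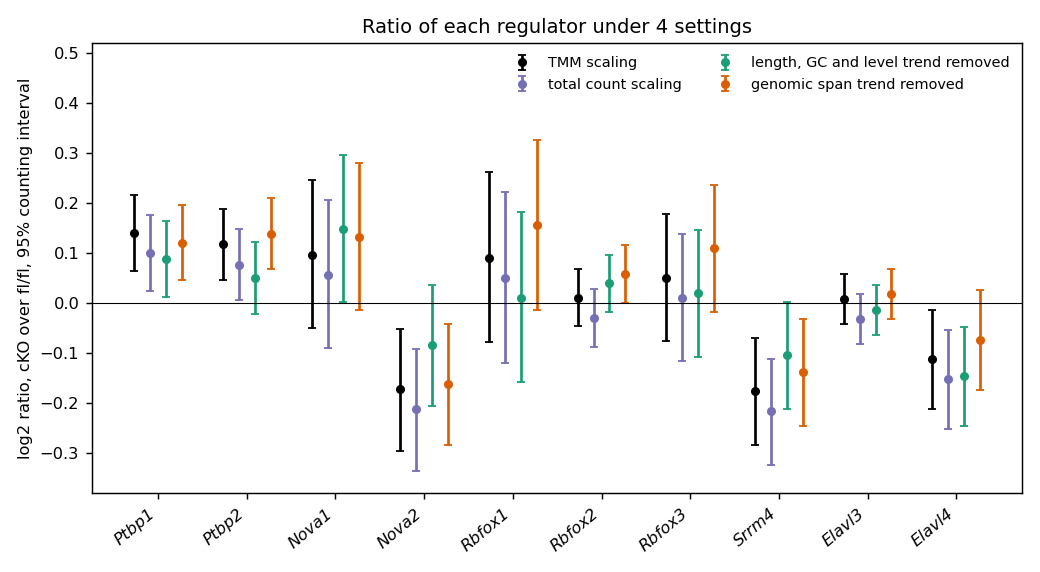
Log2 ratio of H2AZcKO over H2AZfl/fl for each regulator with its 95% counting interval under TMM scaling (black), total count scaling (purple), removal of a trend fitted on length, GC content and level (green) and removal of a trend on genomic span (orange). Points of a gene differ by less than the length of their intervals, and only the Ptbp1 intervals stay on the same side of 0 in every setting drawn.

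Other regulators of tissue-specific splicing ranged from -0.21 to 0.32 on the log2 scale. Of 24 such genes 22 were tested, 13 above 0 and 9 below, and their median log2 ratio was 0.065. None was 1.5-fold higher or lower, 3 were 1.2-fold higher, and the interval lay above 1 for 6 and below 1 for 3. Of all genes tested 51.0% were above 0 and 11.4% were 1.2-fold higher, and the interval lay above 1 for 12.6% and below 1 for 11.2%. Among genes with at least 1137 counts, a depth that not all of this list reach, the shares were 57.5%, 4.03%, 25.7% and 15.5%. Farthest from 0 were Rbm24, a muscle regulator, at 118 counts in H2AZfl/fl and 145 in H2AZcKO (ratio 1.27, 0.990 to 1.64), and the X-linked Mbnl3 at 24 and 31 counts (1.34, 0.759 to 2.38). Rbm38, an RNA-binding target of p53, followed at 55.7 CPM in H2AZfl/fl and 68.5 CPM in H2AZcKO (1.23, 1.09 to 1.39). Tra2b, a splicing activator, was at 256 CPM and 303 CPM (1.19, 1.12 to 1.26). Of these 4 the intervals of Rbm24 and Mbnl3 include 1.

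Genes whose exons or transcripts are known as regulated by these proteins ranged from -0.29 to 0.30 on the log2 scale. Of 20 such genes, all tested, 7 were above 0 and 13 below, beside 51.0% of all genes tested above 0. With the joint trend removed, and likewise with the span trend removed, 8 were above 0 and 12 below. Their median log2 ratio was -0.071, and -0.042 and -0.037 with these trends removed. The interval lay below 1 for 8 and above 1 for 1, beside the 11.2% and 12.6% of all genes tested, whose depth differs from that of the list. Among genes with at least 1137 counts, a depth that not all of this list reach, these shares were 15.5% and 25.7%, and 57.5% were above 0. Farthest from 0 were Grin1, an NMDA receptor subunit, at a ratio of 1.24 (0.991 to 1.56), Agrn, the proteoglycan agrin, at 0.817 (0.784 to 0.852), Bak1, an effector of apoptosis, at 0.816 (0.686 to 0.970), and Ank3, the scaffold ankyrin-G, at 0.839 (0.791 to 0.891). Dlg4, which encodes PSD-95 and whose transcript is destabilised when Ptbp1 or Ptbp2 keeps an exon out, was at 331 CPM in H2AZfl/fl and 296 CPM in H2AZcKO, a ratio of 0.895 (0.848 to 0.943). It was picked from the list for its tie to Ptbp1, with its value known. Counts per gene do not show whether any exon of these genes was used differently.

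The cell types that carry these regulators were followed with marker lists. The counts of markers above 0, here and below, stand beside 51.0% of all genes tested. Of 12 apical progenitor genes 9 were above 0, the median log2 ratio was 0.11 (0.037 with the joint trend removed), and their summed level was 3669 CPM in H2AZfl/fl and 3941 CPM in H2AZcKO. Of 15 neuronal genes 9 were above 0 and 6 below, with a median of 0.042 (-0.020 with the trend removed, where 5 of 15 were above 0). Their summed level was 7663 CPM in H2AZfl/fl and 7824 CPM in H2AZcKO. Before scaling, their counts summed to 69103 in H2AZfl/fl and 68192 in H2AZcKO, so the direction of the sum depends on the scaling. It also rests on Tubb3, the most abundant of them, at 2165 and 2336 CPM. With no trend removed, the log2 ratio of Ptbp1, 0.14, stood 0.027 above the progenitor median, and the median of the neuronal regulators stood 0.030 below the neuronal median. With the joint trend removed Ptbp1 stood at 0.088, against the progenitor median of 0.037. The order of the neuronal regulators and the neuronal markers turned with the trends. Their medians were 0.011 and -0.020 with the joint trend removed, and 0.058 and 0.045 with the span trend removed. In bulk tissue fewer cells of a type and less RNA per cell cannot be told apart. No marker of either list was at 0 in either library.

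The median log2 ratios of markers of the diencephalon and hypothalamus, the ventral telencephalon and erythroid cells lay farther from 0 than any regulator. Of the diencephalic and hypothalamic genes all 9 tested were lower in H2AZcKO, with a summed level of 131 CPM in H2AZfl/fl and 66.0 CPM in H2AZcKO, and Nkx2-4 and Rax were at 0 counts in H2AZcKO. All 9 genes of the ventral telencephalon were higher (1255 and 1622 CPM), as were the 8 tested erythroid genes (364 and 691 CPM). The 5 genes of the dorsal telencephalon were above 0, with a median of 0.085 (1344 and 1413 CPM), and the intervals of 3 included 1. With total count scaling 3 of the 5 were above 0, with a median of 0.045, and with the joint trend removed 4 were. Of 8 microglial genes 7 were above 0 (29.9 and 39.4 CPM), but the interval of the ratio included 1 for 5 of the 8. Cx3cr1, at 46 counts in each library, and Aif1, at 9 in each, were above 0 through the scaling alone. Of 6 endothelial genes 2 were above 0 (103 and 101 CPM), and of 6 tested meningeal genes 2 (21.6 and 18.6 CPM). The interval included 1 for all 6 endothelial genes and for 5 of the 6 meningeal genes. The 4 genes of skeletal muscle, where Rbfox1 is also used, had no row in the table. The part of tissue makeup in the ratios of the regulators was not tested.

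**Figure D5:**
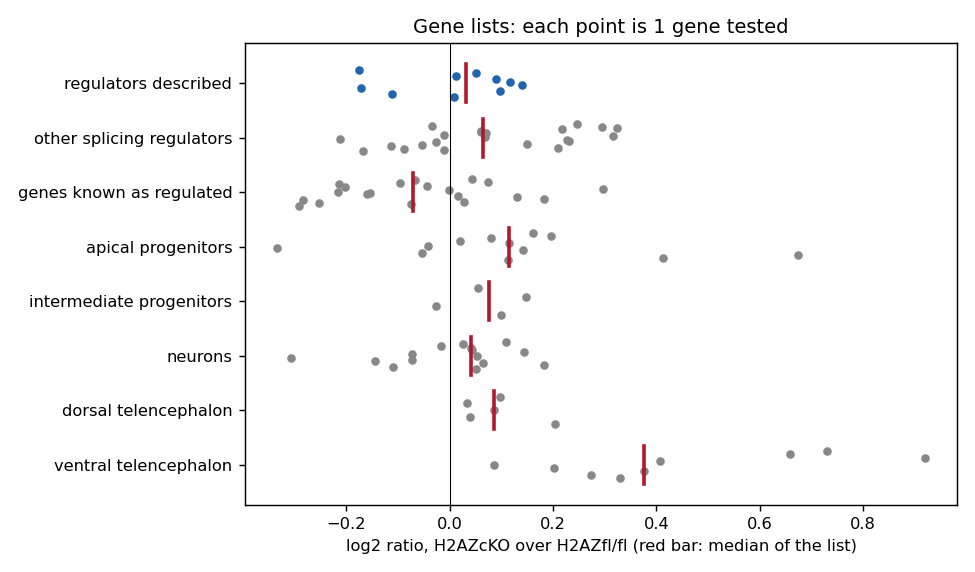
Log2 ratio of H2AZcKO over H2AZfl/fl for the tested genes of 8 lists, with each point 1 gene and the red bar the median of the list. The 10 regulators (blue) lie between -0.18 and 0.14, with the apical progenitor median at 0.11, the neuronal median at 0.042 and the ventral telencephalic median at 0.38.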

How the data were processed

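Total RNA was taken up in Trizol and sequenced from Illumina TruSeq libraries, per the labels' protocols. The build mm9 and the tools HTSeq 0.6.0, TopHat2 2.0.12 and Bowtie2 2.2.3 are named in the submitters' processing notes without their roles. The deposited positions match GRCm38, with 78.7% identical to GENCODE M21 (7 of the 10 regulators). The deposited counts are whole reads per gene. The deposited CPM columns are those counts scaled to a common library total, and a 0 is written there as 0.5 read. The authors' ratio column divides these CPM values, and their log2 column is its log2. No source used here names the test behind the authors' deposited p-value. The column headed WT was taken as H2AZfl/fl.

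Libraries were scaled with edgeR 4.0.16 (TMM factors 0.986 and 1.01). DESeq2 1.42.0 gave size factors only, in R 4.3.3. Ratios and intervals were computed in Python 3.11.15 with scipy 1.17.1, numpy 2.4.6, pandas 2.3.3 and matplotlib 3.10.9, with a pseudocount of 1 CPM on the log2 scale. A count of 0 allows up to 0.339 CPM. Trends were additive quadratic fits over all genes tested. The computation of intervals and trends was checked on simulated Poisson counts and a simulated quadratic trend. These match the models used and hold no spread between replicates or read copies, so they do not show how the intervals perform on the present data. Symbols matched 19112 identifiers.

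The members and lists were chosen with earlier results of these data known. Named were all 10 members, H2afz and, in each list on splicing, all genes when 7 or fewer were tested or else the 4 farthest from 0. Dlg4, the genes that overlap a member, the sex-linked genes and the markers at 0 were named outside that rule, with their values known. Alternatives were pseudocounts of 0.1 and 5 CPM, level floors of 0 and 5 CPM, scaling to the total count, DESeq2 size factors or the deposited CPM, both trend removals, sizes of 1.2-fold and 2-fold, and Wilson intervals. Protein-coding genes alone, the union of exons and leaving out Nova2 were chosen after seeing the data.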

Additional observations from a re-analysis of the deposited data

How the results depend on the processing

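No paired analysis was possible because each genotype has 1 column of counts. The log2 ratios of the 10 regulators stayed inside their own counting intervals in all 90 recomputations, and the count of regulators past 1.5-fold was 0 in every setting tried, also at 1.2-fold and 2-fold. The sign of Rbfox2 turned negative with total count scaling, the deposited CPM and DESeq2 size factors, and that of Elavl3 with these and with the joint trend removed. The log2 ratio of Ptbp1 ran from 0.088 to 0.14, the neuronal median from -0.029 to 0.058, and their difference from 0.063 (span trend removed) to 0.13.

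The background depends on the settings. Genes at least 1.5-fold higher and lower numbered 280 and 442. They numbered 590 and 816 with a pseudocount of 0.1 CPM, 29 and 59 with 5 CPM, and 90 and 161 with a floor of 5 CPM. At 2-fold they were 22 and 70, and at 1.2-fold 1665 and 1959. The floor tests fewer genes and the sizes change the threshold by construction, and a larger pseudocount shrinks the ratios of low genes. At these depths Rbfox1, the regulator with the fewest counts, had an interval of 0.947 to 1.2 around its ratio of 1.07. That interval gives the width of the counting error and is not a limit of detection for a difference between genotypes.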
